A study of Mus musculus with 6 samples.

Results

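The levels of 10 mouse genes widely used as macrophage markers were examined in 6 RNA-seq libraries of PDVC57, an established mouse line of squamous carcinoma from skin. The genes were taken by name from a deposited table of raw counts with 55385 mouse gene rows, and all 10 were present. Of these, 8 passed the filter on low counts and are among the 18504 genes tested, while Mrc1 and Cd163 did not pass. The labels give 3 libraries of genotype Sox2 KO (knockout) and 3 libraries of genotype Sox2 overexpression, and the series' text describes carcinoma cells low or high in Sox2 that were recovered from grafted tumours. The strain and age of the host, the means of overexpression, the number of clones and the way tumour cells were separated from host cells are not given in the sources used here. The knockout libraries are called KO1 to KO3 and the overexpression libraries OE1 to OE3 by replicate number. The labels do not say whether replicates came from separate tumours, so the tests measure the spread between these libraries, which may be technical.

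Macrophages are phagocytes of the innate immune system that settle in tissues and enter tumours. They depend on signalling through the receptor encoded by Csf1r, take up debris and pathogens through scavenger and lectin receptors, and in many tissues are a main source of the complement subunit C1q. Several genes used to mark them are shared with other white blood cells. The adaptors encoded by Tyrobp and Fcer1g carry the activation motif (ITAM) through which many receptors of macrophages, dendritic cells, mast cells and natural killer (NK) cells signal, and Cd68 encodes a lysosomal membrane protein.

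The 6 libraries held 31247976 to 38543221 counts over mouse genes. Sox2 had 25 to 49 counts in the knockout libraries and 2566 to 4095 in the overexpression libraries, so its level separated the groups as labelled (log2 fold change 6.58, standard error 0.33, edgeR adjusted p = 2.29e-06). Epithelial genes were present in all libraries, with a summed level over 20 genes of 7215 to 11146 CPM (counts scaled to a library of fixed size) with knockout and 17812 to 22916 CPM with overexpression, where 15 of the 20 rose. The knockout libraries also held RNA of genes that mark other cells. All 10 fibroblast genes of a fixed list were lower with overexpression, and their summed level was 55994 to 83767 CPM with knockout and 255 to 404 CPM with overexpression. Of 10 genes shared by all white blood cells, 9 were tested and 8 fell, with a summed level of 60.5 to 470 CPM with knockout and 10.5 to 13.8 CPM with overexpression. Most of the overexpression sum came from Cd53 (5.89 to 8.61 CPM), whose groups overlapped and which did not pass the test (edgeR adjusted p = 0.38). No sequencing batch is given in the labels.

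The macrophage markers did not move as a block. Tyrobp and Fcer1g, the ITAM adaptors, had the lowest fold changes, Lyz2 and C1qa fell by less, and Csf1r and Cd68 had higher mean levels with overexpression without passing the test. Of the 8 tested genes, 4 fell and 0 rose at an adjusted p under 0.05 in the edgeR quasi-likelihood test. At an unadjusted p under 0.05, 1 gene (Csf1r) was higher, and DESeq2 also called 0 higher. Over all tested genes, 31.6% were called, 18.0% lower and 13.6% higher, and these shares stand beside the counts of every list. The 4 called genes reached the filter's minimum in all 3 knockout libraries and in at most 1 overexpression library, so they entered the test through the group in which they were high, and their count is given as a description. The median log2 fold change of the 8 tested genes was -1.94, beside -0.016 for all tested genes. Of the 8, C1qc, Tyrobp and Fcer1g reached the filter's minimum in no overexpression library, so this median is a description too. In bulk RNA, fewer cells of a type and less RNA per cell cannot be told apart.

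**Figure D1:**
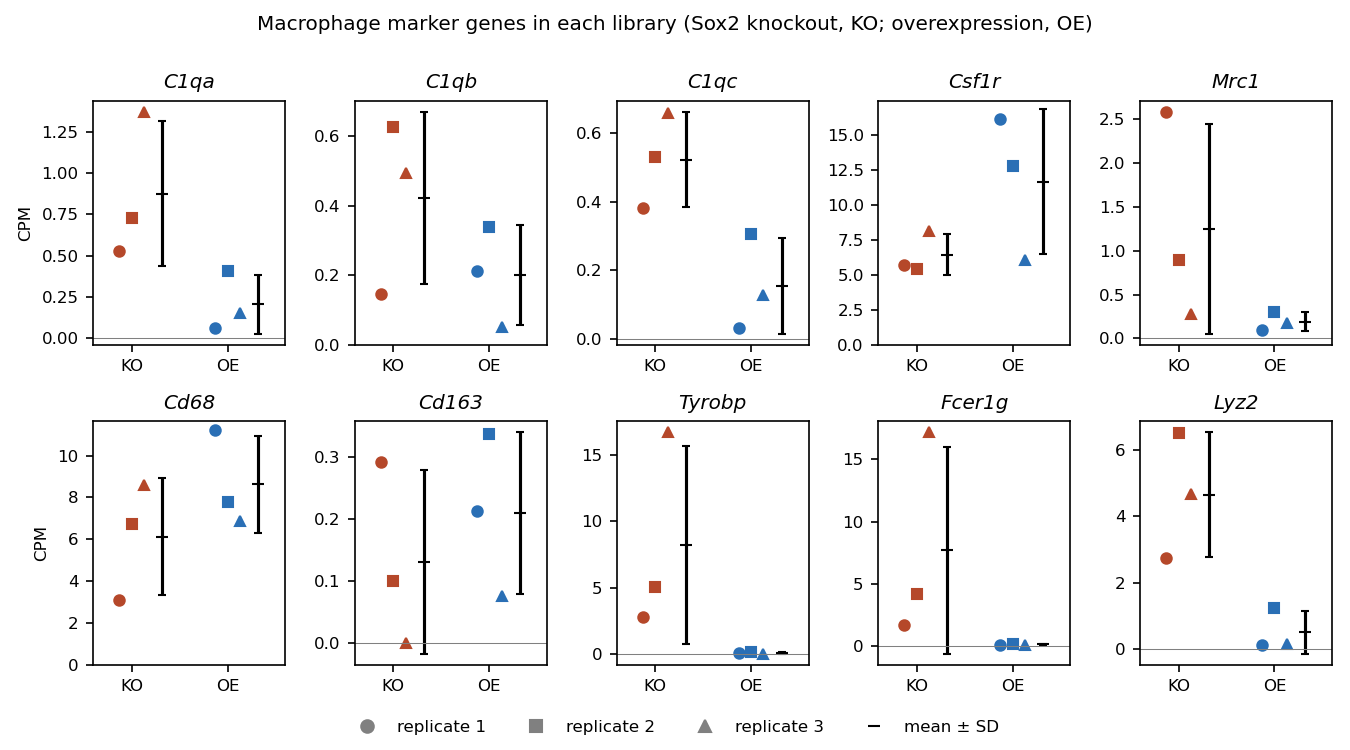
Level (CPM, linear axis, a separate scale for each gene) of the 10 macrophage marker genes in each of 3 knockout (KO) and 3 overexpression (OE) libraries; symbols are replicates and black bars are the mean ± SD. Tyrobp and Fcer1g are highest in KO3, Mrc1 is highest in KO1, and the groups overlap for Csf1r and Cd68.

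Tyrobp (also DAP12; chromosome 7, 30413760 to 30417585, plus strand, GRCm38) encodes an adaptor that pairs with activating receptors such as those of the TREM family and several NK cell receptors. It had 96, 153 and 609 counts in KO1 to KO3 against 3, 5 and 1 in OE1 to OE3. In CPM, the level was 2.81, 5.06 and 16.7 with knockout and 0.0915, 0.169 and 0.0253 with overexpression. Every knockout library lay above every overexpression library, and KO3 was well above the others. Of all tested genes, 26.5% did not overlap between groups in this direction. Tyrobp fell by 6.45 ± 0.88 on the log2 scale (SE, edgeR adjusted p = 0.000714). Without KO3, the knockout mean was 3.94 CPM in place of 8.19 CPM, and the log2 fold change was -5.38 (edgeR adjusted p = 0.000193). The overexpression mean of 0.0953 CPM, or 0.0584 CPM without OE2, is near the level of 3 counts in a library, 0.0759 to 0.101 CPM.

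Fcer1g (chromosome 1, 171229572 to 171234365, minus strand, GRCm38) encodes the common gamma chain of Fc receptors, the signalling subunit of receptors for IgG and IgE. It had 58, 126 and 627 counts in KO1 to KO3 against 3, 5 and 4 in OE1 to OE3. The knockout libraries again lay above all overexpression libraries, and KO3 held most of the counts. The level was 7.68 ± 8.32 CPM (± SD, 3 libraries) with knockout and 0.121 ± 0.0423 CPM (± SD, 3 libraries) with overexpression, log2 fold change -5.97 ± 0.95 (SE, edgeR adjusted p = 0.00167). This overexpression mean too is near the level of 3 counts in a library, 0.0759 to 0.101 CPM, so the size of the fall is uncertain. Without KO3 the knockout mean was 2.93 CPM, with a log2 change of -4.57 (edgeR adjusted p = 0.000335). The ratio of Tyrobp to Fcer1g counts was 1.66, 1.21 and 0.971 in KO1 to KO3, so it differed less between these libraries than the level of either gene.

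The 13 genes fixed as partners of these adaptors, receptors that signal through either adaptor and the kinase Syk, were mostly rare. Only 4 were tested and 3 fell, with a median log2 fold change of -2.96 (-2.63 with a gene at 3 counts or fewer set to its bound). Of the 3, Fcgr3 and Fcgr4 were below the filter's minimum in all overexpression libraries and entered the test through the knockout group, so their fall was favoured by the filter. Syk, the kinase recruited by ITAM motifs, fell from 23.2 ± 8.92 to 5.05 ± 1.68 CPM (± SD, 3 libraries each), log2 fold change -2.20 ± 0.36 (SE, edgeR adjusted p = 0.00185). Fcgr3, an IgG receptor gene, had 28 to 95 counts with knockout and 1 to 8 with overexpression. Fcgr4, another IgG receptor gene, had 14 to 50 counts with knockout and 1 in each overexpression library. Both fell (edgeR adjusted p = 0.00526 and 0.00321). Fc receptor genes of this family resemble each other, and counting could have split their reads. Trem2, a receptor gene of lipid-handling macrophages that signals through Tyrobp, had 18 to 24 counts with knockout and 12 to 28 with overexpression, with a log2 fold change of -0.097 (edgeR adjusted p = 0.879).

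Several lists of white blood cell genes, though not all, were highest in KO3, like the adaptors. The wider macrophage sum, described below, was lowest in KO3 (164, 182 and 154 CPM in KO1 to KO3). Gpnmb alone gave 65.4, 71.1 and 57.6 CPM of it. Of its rarer genes, Cybb (20, 28 and 82 counts) was highest in KO3 and Siglec1 (114, 44 and 89) in KO1. The monocyte sum, mostly from Fn1, was highest in KO3 but differed little (8044, 6958 and 8697 CPM). The neutrophil sum was highest in KO1 (165, 86.3 and 64.5 CPM in KO1 to KO3). Most of it came from Mmp9 (97.1, 44.4 and 29.8 CPM) and Ltf (63.4, 35.1 and 25.2 CPM). Rarer genes of that list differed, with S100a8 (2, 8 and 70 counts) and Csf3r (24, 31 and 98) highest in KO3. Cxcr2 (61, 80 and 50 counts) was highest in KO2. The mast cell (17.9, 25.7 and 21.4 CPM) and B cell (0.762, 1.42 and 0.247 CPM) sums were highest in KO2. The summed level of the white blood cell list was 60.5, 116 and 470 CPM in KO1 to KO3. Endothelial genes, which are not of white blood cells, also had their highest sum in KO3 (33.4, 53.3 and 122 CPM). Ptprc (CD45), which marks nearly all white blood cells, had 363, 654 and 3215 counts in KO1 to KO3 and 14 to 20 in overexpression libraries. Relative to Ptprc, Tyrobp lay between 0.189 and 0.264 counts per count in the 3 knockout libraries and Fcer1g between 0.16 and 0.195. Of 10 T and NK cell genes, 9 were tested and 7 fell, with a summed level of 11.7, 22.1 and 115 CPM in KO1 to KO3 and 2.00 to 4.39 CPM with overexpression. Of these 7, 6 entered the test only through the knockout libraries, as did both dendritic cell genes that fell and 2 of the 8 white blood cell genes, so these counts are descriptions. Prf1 (perforin), Nkg7 (a granule protein), Ncr1 (the NK receptor NKp46) and Klrb1c (NK1.1) had 1728, 941, 230 and 265 counts in KO3 and at most 3 in any overexpression library. Of 8 dendritic cell genes, 4 were tested, 2 fell and 1 rose. Their summed level was 15.5, 24.4 and 78.2 CPM in KO1 to KO3 and 11.4 to 18.0 CPM with overexpression. Itgax (CD11c) and Ccr7, a chemokine receptor gene of migrating dendritic and T cells, had 1472 and 738 counts in KO3 and at most 5 and 4 in an overexpression library. Flt3, a cytokine receptor gene of dendritic cell precursors, rose from 45 to 193 counts with knockout to 340 to 413 with overexpression (edgeR adjusted p = 0.0165), which was 0.0545 without KO2, 0.0656 without OE2 and 0.283 with libraries scaled to the epithelial list. The part of NK, T and dendritic cell RNA in the fall of Tyrobp and Fcer1g was not tested.

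**Figure D2:**
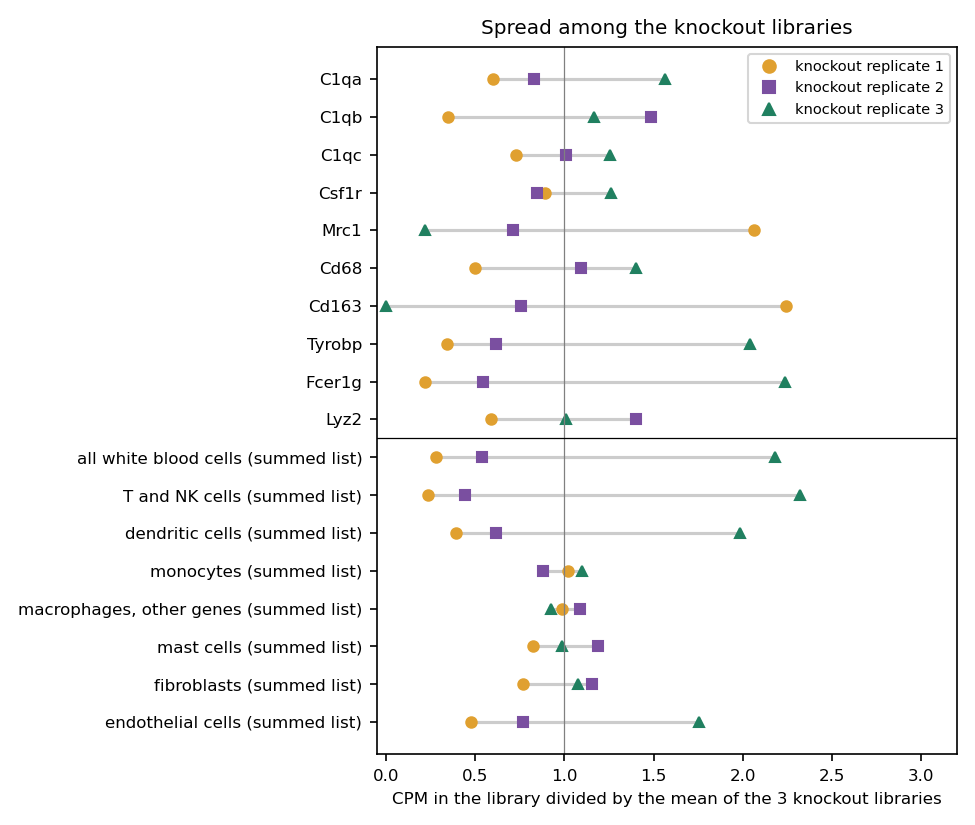
Level of each macrophage marker gene (upper rows) and summed level of fixed marker lists (lower rows) in the 3 knockout libraries, each divided by the mean of those libraries (CPM ratio, linear axis). Tyrobp, Fcer1g, C1qa, C1qc, Csf1r and Cd68 are highest in replicate 3. So are the white blood cell, T and NK cell, dendritic cell, monocyte and endothelial lists. Mrc1 and Cd163 are highest in replicate 1. Lyz2, C1qb and the macrophage, mast cell and fibroblast lists are highest in replicate 2.

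Lyz2 (chromosome 10, 117277331 to 117282321, minus strand, GRCm38) encodes lysozyme, a secreted enzyme that cleaves bacterial cell walls and is made by macrophages, monocytes and neutrophils. It had 94, 197 and 171 counts in KO1 to KO3 against 4, 37 and 6 in OE1 to OE3. The groups did not overlap, and OE2 stood above the others of its group. The level fell from 4.65 ± 1.88 to 0.508 ± 0.644 CPM (± SD, 3 libraries each), log2 fold change -3.22 ± 0.81 (SE, edgeR adjusted p = 0.0164). Without OE2 the overexpression mean was 0.137 CPM, with a log2 change of -5.02 (edgeR adjusted p = 0.00195). Without KO2 the adjusted p was 0.0541. The ratio of Lyz2 to Tyrobp counts was 0.979, 1.29 and 0.281 in KO1 to KO3, so Lyz2 did not share the high level of the adaptors in KO3. Reads of Lyz2 could be shared with its paralog Lyz1, which had 0 to 10 counts in any library.

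C1qa, C1qb and C1qc encode the chains of C1q, the complement subunit that recognises antibody on a surface. They lie side by side on the minus strand of chromosome 4, C1qb at 136880129 to 136886187, C1qc at 136889804 to 136893065 and C1qa at 136895917 to 136898803 (GRCm38). All were rare. C1qa had 18, 22 and 50 counts in KO1 to KO3 against 2, 12 and 6 in OE1 to OE3. Its groups did not overlap, with a log2 fold change of -2.10 ± 0.68 (SE, edgeR adjusted p = 0.0447). That p was above 0.05 without KO2 (0.0812) or KO3 (0.123) and without OE1 (0.122) or OE3 (0.147), and without OE2 the overexpression mean of 0.206 CPM was 0.106 CPM. C1qc had 13, 16 and 24 counts with knockout and 1, 9 and 5 with overexpression, which did not overlap and gave a log2 fold change of -1.77 (edgeR adjusted p = 0.0802, or 0.0478 without OE2). C1qb had 5, 19 and 18 counts with knockout and 7, 10 and 2 with overexpression, with overlapping groups and a log2 fold change of -1.10 (edgeR adjusted p = 0.3). The overexpression means of C1qb and C1qc were 0.201 and 0.154 CPM, and 0.132 and 0.0785 CPM without OE2.

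The genes for the proteins that act with C1q had higher levels per length than the C1q chains in the knockout libraries, for example a mean of 242 CPM per kilobase for C1s1 against 0.841 for C1qa. Of 7 genes fixed for the classical pathway, 6 fell and 1 did not pass the test, beside 18.0% of all tested genes that fell. Their median log2 fold change was -6.31. C1ra and C1s1, the proteases carried by C1q, both fell, C1ra from 377 ± 178 to 8.48 ± 2.48 CPM and C1s1 from 757 ± 289 to 24.7 ± 5.03 CPM (± SD, 3 libraries each). Serping1, the inhibitor of these proteases, fell from 704 ± 319 to 6.37 ± 2.31 CPM (± SD, 3 libraries each), and C2 from 83.6 ± 14.7 to 1.06 ± 0.352 CPM (± SD, 3 libraries each). Their edgeR adjusted p-values lay between 2.05e-06 (C2) and 3.84e-05 (C1ra). Exons of C1s1 and C2 overlap those of other genes. These genes are also made by fibroblasts, whose listed markers were 55994 to 83767 CPM in sum in the same libraries, and the part of either cell type was not tested.

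Csf1r encodes the receptor for the growth factors Csf1 and Il34, on which most macrophages depend. It had 195, 164 and 296 counts in KO1 to KO3 against 529, 378 and 238 in OE1 to OE3. The highest knockout library lay above the lowest overexpression library, so the groups overlapped. The level was 6.42 ± 1.48 CPM (± SD, 3 libraries) with knockout and 11.6 ± 5.16 CPM (± SD, 3 libraries) with overexpression, log2 fold change 0.86 ± 0.36 (SE, edgeR adjusted p = 0.103). The adjusted p was 0.0177 without OE3 and 0.0291 without the filter on low counts. The log2 fold change was -0.33 (edgeR adjusted p = 0.509) under scaling by the epithelial genes. Exons of Csf1r overlap those of Hmgxb3 on the other strand, and Hmgxb3 had 1130 to 1669 counts with knockout and 1110 to 1419 with overexpression (log2 fold change -0.099, edgeR adjusted p = 0.668). Relative to Ptprc, Csf1r counts were 0.0921 to 0.537 in the knockout libraries and 11.9 to 37.8 in the overexpression libraries.

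Both ligand genes were lower with overexpression. Csf1, which also had the larger change, fell from 170 ± 49.7 to 26.1 ± 5.61 CPM (± SD, 3 libraries each), with a log2 fold change of -2.70 ± 0.27 (SE, edgeR adjusted p = 0.000105). Il34, a ligand made by keratinocytes that maintains Langerhans cells in skin, fell from 36.3 ± 6.15 to 17.2 ± 4.81 CPM (± SD, 3 libraries each), log2 fold change -1.07 ± 0.23 (SE, edgeR adjusted p = 0.0076). Exons of Il34 overlap those of predicted genes on the other strand.

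Cd68 (chromosome 11, 69664213 to 69666153, minus strand, GRCm38) encodes the lysosomal glycoprotein most used to stain macrophages. It had 105, 203 and 314 counts in KO1 to KO3 against 368, 230 and 271 in OE1 to OE3, and the groups overlapped. The level was 6.13 ± 2.81 CPM (± SD, 3 libraries) with knockout and 8.62 ± 2.31 CPM (± SD, 3 libraries) with overexpression, log2 fold change 0.49 ± 0.38 (SE, edgeR adjusted p = 0.356). Scaled to the epithelial list it was -0.74 (edgeR adjusted p = 0.168). Relative to Ptprc, Cd68 counts were 0.0977 to 0.31 in the knockout libraries and 13.6 to 26.3 in the overexpression libraries. The overexpression libraries thus held 238 to 529 counts of Csf1r and 230 to 368 of Cd68 beside 14 to 20 counts of Ptprc and at most 5 of Tyrobp.

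Mrc1 and Cd163 encode scavenging receptors of tissue-resident and alternatively activated macrophages, a mannose receptor and the haemoglobin receptor. Mrc1 (chromosome 2, 14229392 to 14332057, plus strand, GRCm38) had 88, 27 and 10 counts in KO1 to KO3 against 3, 9 and 7 in OE1 to OE3. KO1 held most of the counts, the reverse of the adaptors, and KO3 overlapped the overexpression libraries. The Mrc1 knockout mean was 1.25 CPM, and 0.583 CPM without KO1. It was not tested after the filter, and a fit without the filter gave a log2 change of -2.70 ± 0.68 (SE, edgeR adjusted p = 0.00264). Cd163 (chromosome 6, 124304656 to 124330527, plus strand, GRCm38) had 10, 3 and 0 counts in KO1 to KO3 against 7, 10 and 3 in OE1 to OE3. The Cd163 knockout mean was 0.131 CPM, and 0.0496 CPM without KO1. Its count of 0 in KO3 allows up to 0.0822 CPM, for counting error only. A fit without the filter gave a log2 change of 0.65 ± 1.06 (SE, edgeR adjusted p = 0.711).

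**Figure D3:**
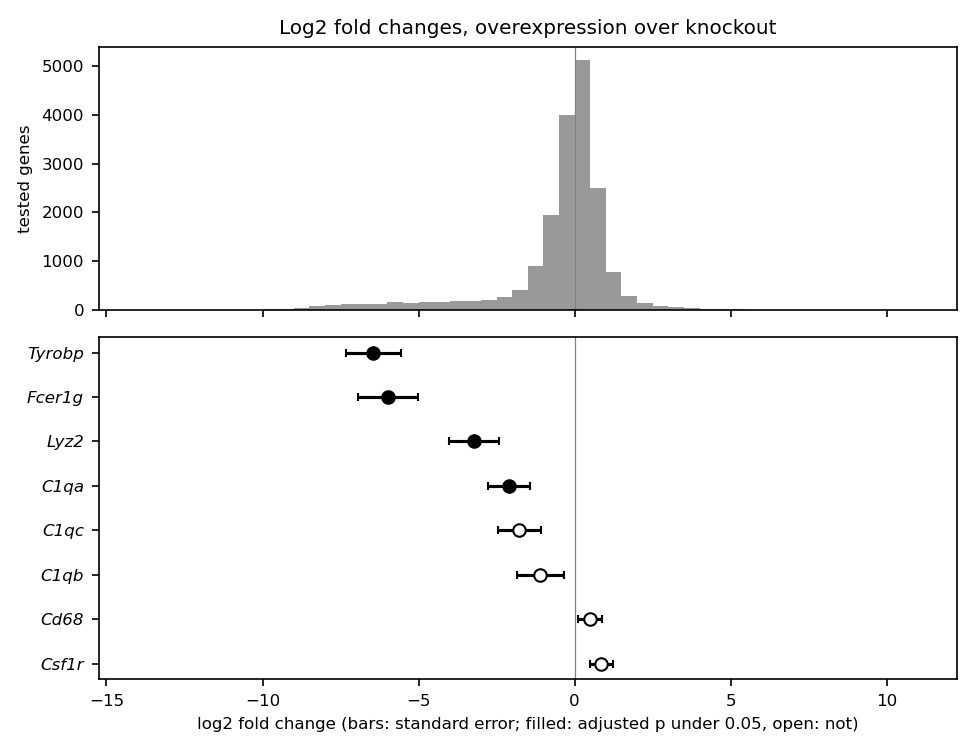
Log2 fold changes, overexpression over knockout, of all 18504 tested genes (upper histogram, genes per bin of 0.5) and of the 8 tested macrophage marker genes (lower points, bars are standard errors, filled where the adjusted p is under 0.05). Tyrobp and Fcer1g lie at -6.45 and -5.97, and Cd68 and Csf1r at 0.49 and 0.86.

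Per length of exon, the order of the markers differed between the groups. In the knockout libraries Tyrobp (12.3 ± 11.2 CPM per kilobase, SD, n = 3) and Fcer1g (8.79 ± 9.52) came before Cd68 (4.88 ± 2.24) and Lyz2 (3.54 ± 1.43). Csf1r (1.11 ± 0.256), C1qa (0.841 ± 0.423), C1qb (0.389 ± 0.228), C1qc (0.271 ± 0.0717), Mrc1 (0.196 ± 0.187) and Cd163 (0.0239 ± 0.0273) followed. In this order, the ranges over libraries of all neighbours overlapped except those of Lyz2 and Csf1r. In the overexpression libraries Cd68 (6.86 ± 1.83 CPM per kilobase, SD, n = 3) was highest, Csf1r (2.02 ± 0.893) and Lyz2 (0.386 ± 0.489) came next, and the ranges of these 3 genes did not overlap. The other 7 lay at 0.198 CPM per kilobase or below on average (C1qa, followed by C1qb, Tyrobp, Fcer1g, C1qc, Cd163 and Mrc1), each overlapping its neighbour.

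**Figure D4:**
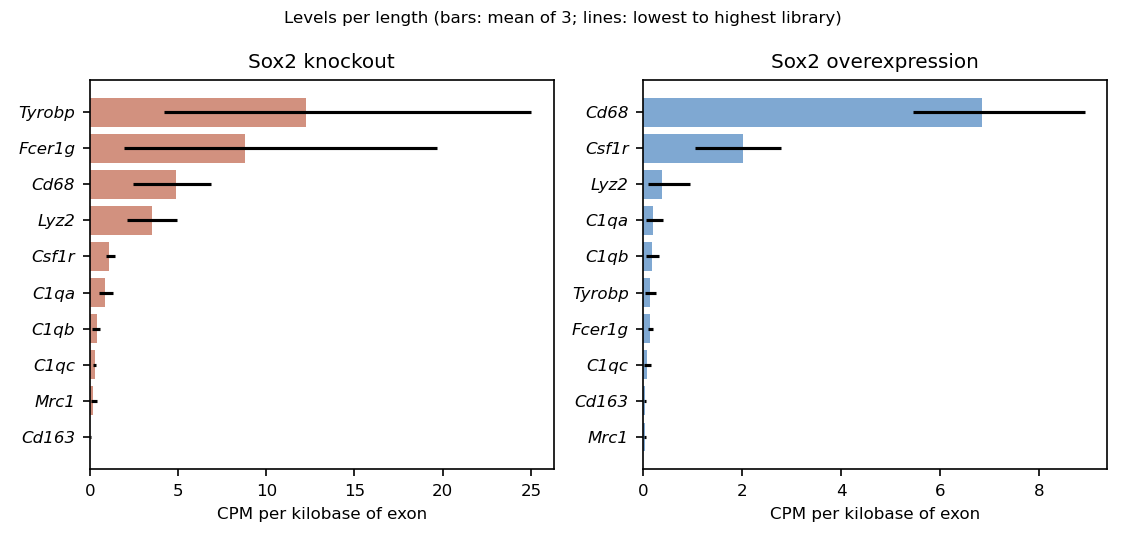
Level per length (CPM per kilobase of exon, linear axes with different scales) of the 10 genes in the knockout and overexpression groups, ordered by mean; bars are means of 3 libraries and lines run from the lowest to the highest library. Tyrobp leads with knockout at 12.3 and Cd68 leads with overexpression at 6.86.

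A wider list of 24 macrophage genes outside the marker set gave a similar mixture. The filter passed 13 of them, 7 fell and 1 rose, beside 18.0% lower and 13.6% higher over all tested genes. The median log2 fold change of the 13 was -1.21. Aif1, Spi1 and Cybb, 3 of the 7, passed the filter only through the knockout libraries. The count of 7 was 4 without KO2, KO3, OE2 or OE3. Cybb, the oxidase subunit of the phagocyte burst, fell from 20 to 82 counts with knockout to 2 to 4 with overexpression (edgeR adjusted p = 0.00317). Itgam (CD11b) had 25 to 148 counts with knockout and 7 to 14 with overexpression (edgeR adjusted p = 0.0129), which was 0.0626 without OE2 and 0.0508 without OE3, and its exons overlap those of Gm49368. Siglec1, a sialic acid receptor gene, had 44 to 114 and 26 to 33 counts (edgeR adjusted p = 0.0255), which was above 0.05 without KO1 (0.0858) and without OE1 (0.0733) or OE3 (0.0926). Mertk, Aif1 and Spi1, named after their values were seen, also fell. Mertk (edgeR adjusted p = 0.0478) missed the threshold in every fit with 1 library left out except that without OE3, and Aif1 (edgeR adjusted p = 0.0366) in all except that without OE1. Cd14, the co-receptor for bacterial lipopolysaccharide, had 465, 345 and 318 counts with knockout and 1250, 960 and 476 with overexpression, groups whose CPM overlapped, with a log2 fold change of 1.29 (edgeR adjusted p = 0.0345). The adjusted p of Cd14 was above 0.05 without KO2 (0.0919) or KO3 (0.0931), without OE1 (0.0905) or OE2 (0.111), and with scaling to the epithelial list (0.65).

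Other genes of this list, named after their values were seen, ranged from no counts to moderate ones. Marco and Vsig4, scavenger and complement receptors of resident macrophages, had 0 counts in all 6 libraries, where a count of 0 allows up to 0.0759 to 0.101 CPM. Adgre1 (F4/80), the usual marker of mouse macrophages, had 5, 24 and 36 counts in KO1 to KO3 and 0 to 2 with overexpression, and did not pass the filter. Fcgr1, the high-affinity IgG receptor gene, had 6 to 9 and 1 to 2 counts. Timd4 had 3, 0 and 33 counts in KO1 to KO3, and Cd5l 1, 0 and 7. Lyve1, a hyaluronan receptor gene shared with lymphatic endothelium, had 12 to 27 counts with knockout and 13 to 45 with overexpression, and the chemokine receptor gene Cx3cr1 had 12 to 44 and 8 to 12. Ctss and Gpnmb, lysosomal genes shared with other cells, had 179 to 375 and 2101 to 2230 counts with knockout and 295 to 1232 and 2216 to 2923 with overexpression. The summed level of the wider list was 154 to 182 CPM with knockout and 134 to 174 CPM with overexpression. Gpnmb alone had 57.6 to 71.1 CPM with knockout and 67.6 to 75.9 CPM with overexpression. The sums thus follow the abundant genes and say little about rare ones such as Adgre1.

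Likeness over the 6 libraries also divided the markers. Over log2(CPM + 0.5), the correlation of single markers with the mean profile of the 10 ranged from -0.213 (Cd163) to 0.925 (Lyz2), with Csf1r at -0.166 and Cd68 at -0.09. The genes outside all lists closest to that mean profile were Ccdc134 (r = 0.999), Ube2d-ps (0.989), Rgmb (0.985), Vti1b (0.985) and Pisd (0.982), with edgeR adjusted p-values between 0.0939 and 0.215, among 12992 genes of which 1.71% had r over 0.9. Among the 101 tested genes of the fixed lists, in a comparison added after the values were seen, the closest to Tyrobp were Ptprc (r = 0.998) and Cd52 (0.997), and the closest to Fcer1g were Ccr7 (0.999) and Nkg7 (0.998). The closest to Csf1r were Ctss (0.967) and Cd14 (0.863), and the closest to Mrc1 was Tpsb2, a mast cell tryptase gene (0.892). All these values share the 6 libraries and the difference between their groups, and describe them only.

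Promoters are shown for 3 markers that differed in outcome, Fcer1g and Lyz2, which fell, and Cd68, which did not pass the test. The sequences are those of RefSeq on GRCm38.p6, from 250 to 51 bases before the start of the gene, 5′ to 3′ on the gene's strand (minus for all 3), and 7 of the 10 markers had an entry. Capitals mark GAGGAA or its reverse complement TTCCTC, 1 form of the site recognised by PU.1, the macrophage transcription factor encoded by Spi1. Other forms of the site were not searched and are not marked.
Fcer1g (chr1:171234400-171234599): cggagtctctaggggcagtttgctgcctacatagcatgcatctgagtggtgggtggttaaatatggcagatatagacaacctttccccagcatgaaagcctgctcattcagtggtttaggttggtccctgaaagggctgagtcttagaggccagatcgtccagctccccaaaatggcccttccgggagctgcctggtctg
Lyz2 (chr10:117282323-117282522): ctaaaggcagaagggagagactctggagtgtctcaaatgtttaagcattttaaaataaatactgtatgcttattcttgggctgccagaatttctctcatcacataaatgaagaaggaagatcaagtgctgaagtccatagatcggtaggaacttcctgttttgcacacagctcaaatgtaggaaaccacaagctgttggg
Cd68 (chr11:69666221-69666420): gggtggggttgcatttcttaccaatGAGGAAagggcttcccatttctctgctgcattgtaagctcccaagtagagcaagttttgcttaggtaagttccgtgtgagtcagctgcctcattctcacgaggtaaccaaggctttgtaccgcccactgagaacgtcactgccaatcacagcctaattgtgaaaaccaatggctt
The letters GAGGAA, on either strand, occur in 18.8% of all 32851 RefSeq promoter windows of this length and in the windows of 3 of the 7 markers, Cd68 (1 match), C1qc (1) and Mrc1 (2). Spi1 had 11, 23 and 69 counts in KO1 to KO3 against 3, 7 and 0 in OE1 to OE3, log2 fold change -3.23 ± 0.98 (SE, edgeR adjusted p = 0.0358). That p was above 0.05 without KO2 (0.0643) or KO3 (0.102) and without OE1 (0.0947) or OE3 (0.0801). A match in a window is a description of the letters, not of binding.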

How the data were processed

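The deposited table holds whole-number counts per gene with no normalization. The submitters' processing notes name kallisto 0.44.0 and the build mm10, and do not say whether the counts deposited are rounded estimates. The annotation and strand setting are not given in the sources used here. Columns were matched to samples by description. The 96 of 55481 rows that stand for spike-ins (92) or constructs (4), at most 2.23e-05% of the counts in any library, were dropped. Symbols came from a GENCODE M21 table (55144 of 55385 IDs), positions and exon lengths from GENCODE M21 on GRCm38.

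Low genes were removed by filterByExpr (at least 10 counts, total 15), and the rest normalized with TMM and compared, overexpression over knockout, in edgeR 4.0.16 (quasi-likelihood test, R 4.3.3), without a replicate block, with Benjamini-Hochberg adjustment over 18504 genes and a threshold of 0.05. The standard error is the log2 fold change divided by the square root of F. CPM use TMM-normalized library sizes. A count of 0 allows up to 3 counts in a library; such floors cover counting error alone, and no molecular identifiers are named in the labels. A list gene with at most 3 counts in every overexpression library was also set to its bound against 3 counts. The steps were tested on simulated counts. Alternatives were RLE and upper-quartile normalization, scaling to the epithelial list by median ratio, no filter beyond 1 count, a robust fit, a block for replicate number, DESeq2 1.42.0 (Wald), and leaving out each library.

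The 10 members and the 14 other lists were chosen with earlier results of these data known. The naming rule took all members, the Csf1r ligands, up to 4 genes per list with the smallest p-values past the threshold and any that rose, and the 5 genes most like the members; some of these, and the fibroblast, endothelial and epithelial genes, are given only as counts. Untested list genes, Trem2, Ctss, Gpnmb, Cd53, Hmgxb3 and Lyz1 were named after their values were seen. One gene that the rule names in the wider macrophage list is not reported here.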

Additional observations from a re-analysis of the deposited data

How the results depend on the processing

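Scaling to the epithelial list moved the median of all log2 changes to -1.18 and called 13580 genes, 335 higher and 13245 lower, in place of 5848 genes, 2519 higher and 3329 lower. Under it the log2 fold changes of Csf1r and Cd68 became -0.33 and -0.74, which are 0.86 and 0.44 above that median, and the other 6 tested markers passed as lower. With 1 library left out, the count of higher genes ranged from 1446 (without KO2) to 2599 (1610 without KO3), the count of markers that fell from 2 (without KO2) to 5, and the count of the wider list from 4 to 6. The count of markers that rose was 1 (Csf1r) without the filter and ranged from 0 to 1 with a library left out, 1 being the fit without OE3. Over the 46 named genes and 13 alternatives, 556 of 598 values kept direction and side of the threshold, 35 lost the threshold, 5 passed it and 2 changed sign; the cause was not tested. Libraries of the same replicate number showed little shared deviation from their group means (correlations 0.0508, 0.0223 and -0.0399). With 3 libraries per group this cannot settle whether they were paired. A fit with the replicate block called 5593 genes and 4 falling markers. Depth limits the C1q genes, Mrc1 and Cd163, which had at most 88 counts in a library.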

Other observations

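Of 6 mast cell genes, 3 were tested and 3 fell (Hdc, the histamine-forming enzyme, Kit, the stem cell factor receptor, and the tryptase gene Tpsb2), and the summed level was 17.9 to 25.7 CPM with knockout and 0.575 to 0.793 CPM with overexpression. The mast cell protease genes Cpa3 and Mcpt4, which did not pass the filter, had 64, 26 and 6 counts and 162, 62 and 3 counts in KO1 to KO3 and 0 in all overexpression libraries. Kit had 69, 216 and 361 counts in the same knockout libraries and was highest where Tyrobp was.

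Of 8 monocyte genes, 7 were tested and 6 fell, with a median log2 fold change of -3.95. Ccr2, the chemokine receptor that brings monocytes into tissue, had 89, 129 and 697 counts in KO1 to KO3 and 6 to 15 with overexpression (edgeR adjusted p = 0.00355). Ace, F13a1 and Fn1 of this list also fell, and fibroblasts or endothelium express Ace and Fn1 too. Of 13 neutrophil genes, 5 were tested. Mmp9 and Csf3r fell, while Ltf (lactoferrin), a granule protein that epithelia also secrete, rose from 41.2 ± 19.8 to 1687 ± 1274 CPM (± SD, 3 libraries each), a log2 fold change of 5.35 (edgeR adjusted p = 0.000392). Csf3r lost the threshold without KO3 (edgeR adjusted p = 0.0689) and without OE1 (0.0661) or OE2 (0.0924). S100a8 and S100a9, the abundant neutrophil genes, reached no more than 70 counts in any knockout library and 1 in any overexpression library. Of 8 endothelial genes, 7 were tested and 6 fell, and of 4 B cell genes 1 was tested and did not pass the test. The share of all tested genes that fell, 18.0%, stands beside these counts and that of the mast cell genes. Of the list genes that fell, 1 of 3 mast cell, 1 of 6 monocyte and 3 of 6 endothelial genes passed the filter on low counts only through the knockout libraries.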
